A study of Homo sapiens with 10 samples.

Results

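The comparison described here set 254 nm ultraviolet (UV) crosslinking of HEK293 cells, a human embryonic kidney cell line, against untreated cells. It took 4 of the 10 RNA sequencing libraries of the series, chosen by their labelled modified nucleotide (none) and crosslinking: libraries A and B of cells irradiated at 254 nm, and libraries A and B of cells harvested with no irradiation. Both groups grew in DMEM with fetal calf serum and antibiotics, received no modified nucleotide and no siRNA, and gave polyadenylated RNA. A second pair of groups entered for comparison: cells fed 1 mM 4-thiouridine (4SU, a photoreactive uridine analogue) for 12 to 14 h and crosslinked at 365 nm, and 4SU-fed cells without crosslinking. The labels give no dose or time after irradiation and do not say that libraries A and B came from separate cultures, so p-values reflect the spread among these libraries, which may be technical.

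Light of 254 nm is absorbed directly by the bases of nucleic acids. It joins neighbouring pyrimidines, above all adjacent uridines in RNA and adjacent thymines in DNA, and it links bases to proteins in contact with them, which is why it is used in crosslinking and immunoprecipitation (CLIP) to map RNA-binding proteins. In living cells the DNA lesions are known to activate nucleotide excision repair and the p53 response, and UV is a classical inducer of immediate-early genes. Light of 365 nm is absorbed little by natural bases and crosslinks RNA mainly where 4SU has been built in.

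The mRNAs at both ends of the comparison differed in length and in base composition, and the start of the coding sequence is shown for 4 of them so that their bases can be read beside the values. Below are the first 120 coding bases of the 3 mRNAs raised most and of 1 of the 3 lowered most. Both rankings were made among named genes above median level whose tags were not split between transcripts. Their transcript also had to be found by accession in GENCODE v29 (GRCh38), with a coding sequence and a length within 10% of the deposited one. RPS28, raised more than PCSK1N and RPS15, had no coding sequence that met this. Sequences of some genes are not reported here. Runs of TT, the sites of adjacent pyrimidine photoproducts that are simplest to search for, are in capitals. NICOL1, PCSK1N and RPS15 come from mRNAs that rose, and NEMP1 from an mRNA that fell.
NICOL1: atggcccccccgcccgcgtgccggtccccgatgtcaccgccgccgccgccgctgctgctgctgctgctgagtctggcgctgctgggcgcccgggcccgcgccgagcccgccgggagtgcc
PCSK1N: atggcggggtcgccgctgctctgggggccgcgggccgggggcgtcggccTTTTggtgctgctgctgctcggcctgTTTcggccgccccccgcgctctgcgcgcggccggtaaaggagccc
RPS15: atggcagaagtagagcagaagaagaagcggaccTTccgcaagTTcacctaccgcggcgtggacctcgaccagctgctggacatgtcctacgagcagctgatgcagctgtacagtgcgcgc
NEMP1: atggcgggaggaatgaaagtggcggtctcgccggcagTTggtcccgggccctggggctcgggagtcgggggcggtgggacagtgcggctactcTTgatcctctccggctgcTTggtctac
In these windows TT occurred 0, 5 and 2 times for the raised mRNAs and 3 times for NEMP1. Over the whole transcript, TT made up 1.05%, 1.52% and 1.18% of neighbouring base pairs in NICOL1, PCSK1N and RPS15, against 11.5% in NEMP1. The annotated transcripts of RPS28 and RPLP1, which also rose, had 7.55% and 7.94%. The 4 sequences shown therefore do not stand for all mRNAs that rose or fell. NEMP1 shows that the window and the transcript can differ, since its first coding bases held 67.5% GC and its whole transcript 40.9%. NICOL1 lies at chr4:2042050-2043964 (+ strand), PCSK1N at chrX:48831094-48835633 (- strand) and RPS15 at chr19:1438386-1440494 (+ strand). NEMP1 spans chr12:57055648-57078769 (- strand).

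The libraries held 2238569 and 2635373 tags after 254 nm and 3099769 and 2396069 tags without treatment, and 3 tags equalled 1.36 and 1.46 against 0.598 and 0.798 normalised counts per 1000000 tags (CPM). Intervals and floors of this kind cover counting error only. The tag-weighted median length, which divides the tags of a library equally, was 1534 and 1305 nt after 254 nm, against 2666 and 3029 nt in untreated cells. Transcripts under 1000 nt took 31.1% and 38.1% of tags after 254 nm and 12.8% and 9.46% in untreated cells, whereas transcripts over 5000 nt took 5.43% and 4.15% against 16.8% and 21.4%. The mean GC content of the tagged transcripts was 53.6% and 53.4% after 254 nm, against 51.3% and 48.9% in untreated cells. The groups did not overlap in these measures of length and GC content, but they did in total tags. With 2 libraries against 2, an exact two-sided permutation test cannot give a p under 0.333, so these library values carry no test. The untreated libraries also differed from each other: the log2 difference of A to B across genes correlated with GC content (Spearman's rho 0.71, 11155 genes) and with length (-0.41, 13731 genes), while between the 254 nm libraries the values were -0.02 and 0.21. The listed HEK293 markers ranged widely in level. IRS4, an insulin receptor substrate abundant in this line, had 74.5 and 36.6 CPM after 254 nm, against 232 and 263 CPM in untreated cells. The 12 markers summed to 552 and 380 tags per 1000000 after 254 nm and 1050 and 1190 in untreated cells. In each library 10 to 12 of them were detected, counting any value above 0. NEFL had 274 and 185 after 254 nm and 340 and 403 in untreated cells on that scale. Others were near or at 0: VIM had 13.8 and 4.55 against 15.5 and 0, KRT8 0 and 0.379 against 0.323 and 0.417, and LHX1 0 and 0 against 0.968 and 1.25. Of 19 markers of blood, liver, fibroblast, skin and muscle cells, 8 and 8 were detected after 254 nm and 7 and 7 without treatment. Their sums were 101 and 123 against 71.6 and 65.3 on that scale, mostly keratin gene KRT10 (83.5 and 102, against 42.6 and 40.1), and HBB, PTPRC, CD3E, ALB and APOA1 were at 0 in these 4 libraries.

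**Figure D1:**
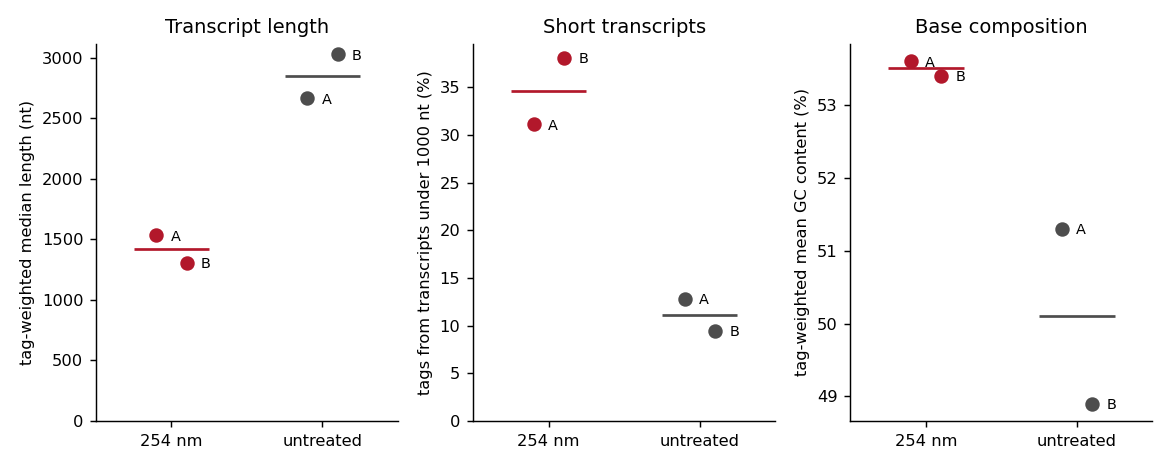
Tag-weighted median transcript length (nt), share of tags from transcripts under 1000 nt (%) and tag-weighted mean GC content (%, axis not from 0) in each library, with lines at the mean of each group of 2. Both 254 nm libraries have the shorter transcripts (1534 and 1305 nt, against 2666 and 3029 nt in untreated libraries) and the higher GC content.

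Relative levels changed throughout the measured transcriptome. Of 13731 genes tested, 7309 (53.2%) differed between 254 nm and untreated cells in edgeR's quasi-likelihood test with Benjamini-Hochberg adjustment (adjusted p under 0.05): 3460 were higher (25.2%) and 3849 lower (28.0%) after 254 nm, with a change of over 2-fold in 3138 and 3593. Without 254 nm library B, 2499 were lower. The 254 nm libraries lay above both untreated libraries for 35.7% of genes and below both for 41.3%. These are shares of each library's tags, scaled with TMM factors. With library totals in place of these factors, 1384 genes were higher and 6462 lower, and the median log2 fold change of all genes moved to -1, against -0.14 with TMM. Changes below are therefore read relative to the other genes. In bulk RNA, fewer cells of a kind and less RNA per cell cannot be told apart.

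Short mRNAs of secreted, ribosomal and membrane proteins were among the largest increases. NICOL1, which encodes a small secreted protein, had 88.6 and 88.4 CPM after 254 nm, against 9.56 and 1.86 CPM in untreated cells, a log2 fold change of 3.89 ± 0.49 (SE). PCSK1N, which encodes the proSAAS precursor of neuroendocrine cells, had 243 and 246 CPM after 254 nm, against 33.1 and 2.66 CPM in untreated cells (3.74 ± 0.53 on the log2 scale). The untreated libraries differed widely for both, with the lower value in library B. RPS28 and RPS15, proteins of the small ribosomal subunit, had 545 and 817 CPM after 254 nm, against 66.9 and 25 CPM in untreated cells and 1414 and 2575 CPM after 254 nm, against 195 and 110 CPM in untreated cells. Their log2 fold changes were 3.88 ± 0.47 and 3.71 ± 0.51. CYBA, a subunit of the NADPH oxidase whose tags were split between transcripts, had 895 and 1266 CPM after 254 nm, against 138 and 30.1 CPM in untreated cells. For each of these 5 genes both 254 nm libraries lay above both untreated libraries, as they did for 35.7% of all genes. The adjusted p ranged from 1.63e-07 to 6.46e-07 (edgeR). The rule for naming the largest changes required this separation and a call, so neither is separate support.

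Long mRNAs, several of them for regulators of transcription, were among the largest decreases. PHF6, a chromatin-associated PHD finger protein, had 5 and 3.42 CPM after 254 nm, against 48 and 74.3 CPM in untreated cells, and its log2 fold change was -3.84 ± 0.45. LIFR, the receptor of leukaemia inhibitory factor, had 5.45 and 2.93 CPM after 254 nm, against 40.4 and 63.1 CPM in untreated cells (-3.60 ± 0.46). NEMP1, a nuclear envelope protein, had 6.82 and 4.88 CPM after 254 nm, against 59.8 and 83 CPM in untreated cells (-3.59 ± 0.41). ZBTB18, a zinc finger repressor, had 3.63 and 2.44 CPM after 254 nm, against 34.7 and 39.7 CPM in untreated cells (-3.59 ± 0.48), and E2F7, an atypical E2F repressor, had 4.54 and 2.44 CPM after 254 nm, against 35.3 and 47.4 CPM in untreated cells (-3.54 ± 0.47). ACSL4, an acyl-CoA synthetase for polyunsaturated fatty acids, had 5.91 and 1.95 CPM after 254 nm, against 35.5 and 57 CPM in untreated cells (-3.52 ± 0.48). The groups did not overlap for any of these 6 genes, which the same rule required (41.3% of all genes lay below both untreated libraries). Their 254 nm values rested on 4 to 15 tags per library. SBNO1 and RDX, whose tags were split, had log2 fold changes of -3.78 and -3.57. The deposited lengths ran from 4244 nt (ZBTB18) to 10981 nt (SBNO1) among these 8 mRNAs, and from 401 nt (RPS28) to 990 nt (PCSK1N) among the 5 that rose.

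**Figure D2:**
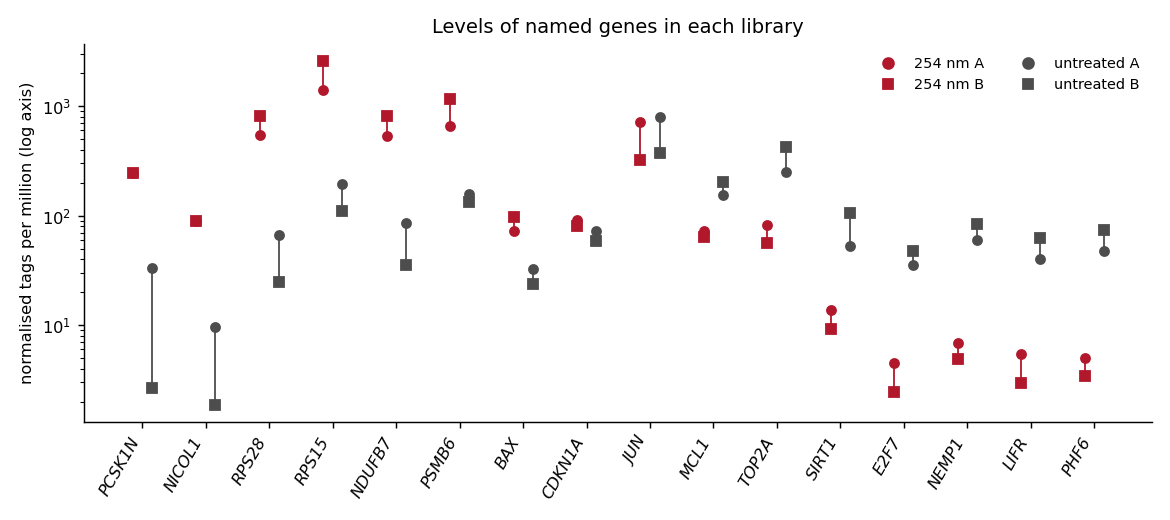
Normalised CPM on a log axis for 16 genes in both 254 nm libraries (left of each pair) and both untreated libraries (right), with circles for library A, squares for library B and a line joining the 2. PCSK1N to BAX lie higher after 254 nm and MCL1 to PHF6 lower, while the ranges of JUN overlap and those of CDKN1A are close (91.8 and 81.1, against 73.1 and 58.8 CPM).

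Transcript length ordered the fold changes across the whole range. Spearman's rho between log2 fold change and deposited length was -0.65 over 13731 genes, -0.65 without the cytosolic ribosomal protein genes, and -0.71 over the 7688 genes with no split tags. Correlations across genes describe these libraries, and genes are not independent replicates. With the genes divided into 5 equal bins by length, in the shortest bin (median 1050 nt) 64.0% of genes rose and 3.89% fell, with a median log2 fold change of 1.51. The next bins, with median lengths of 1928, 2753, 3926 and 6309 nt, had medians of 0.60, -0.09, -0.80 and -1.53. In the longest bin 66.0% fell and 1.42% rose. Length of the 3′ untranslated region and of the coding sequence both followed the fold change, at rho -0.58 and -0.44, while the 5′ untranslated region reached -0.16. These values cover 7793 mRNAs with both annotated and a 3′ untranslated region long enough for a GC value. mRNAs with a very short one, such as RPS15 (32 nt), were left out.

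Base composition ordered the fold changes as well. The rho with GC content of the transcript was 0.56 over 11155 genes with a sequence, with T content -0.53 and with the frequency of TT -0.55. Over the 7793 mRNAs above, GC content of the coding sequence gave 0.48 and that of the 3′ untranslated region 0.51, and the 2 were not separated from each other. The lowest of 5 bins of GC content (median 39.0%) had a median log2 fold change of -1.43, with 61.0% of genes lower and 5.83% higher. The highest bin (62.4%) had 0.97, with 3.14% lower and 50.3% higher. Length and GC content each kept their order within 3 bins of the other. Short GC-rich mRNAs had a median of 1.63 (1611 genes) and short GC-poor ones 0.20, whereas long GC-rich mRNAs had -0.31 and long GC-poor ones -1.91 (1619 genes, 82.1% lower). A linear model on both accounted for 63.7% of the variance among genes, with -0.97 per doubling of length and 0.70 per 10 points of GC. Length alone accounted for 47.5% and GC alone for 30.1%. Since the 2 untreated libraries differ along GC content themselves, the part of this library difference in the GC trend was not tested.

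**Figure D3:**
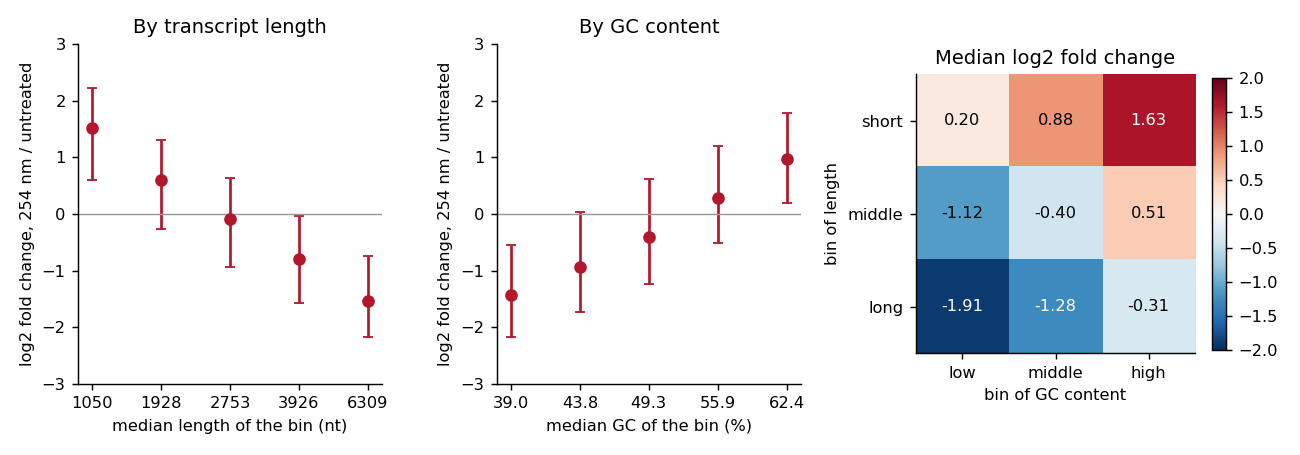
Median log2 fold change (254 nm over untreated) with quartiles for 5 bins of tested genes by transcript length (nt) and by GC content (%), and the median in each combination of 3 bins of both. Values run from 1.51 to -1.53 with length, from -1.43 to 0.97 with GC, and from 1.63 in short GC-rich to -1.91 in long GC-poor mRNAs.

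Ribosomal protein and respiratory chain genes mostly rose. Of the 43 large and 32 small ribosomal subunit protein genes tested, 43 and 32 rose (background 25.2%), with median log2 fold changes of 2.75 and 2.78, against -0.14 over all genes. RPLP1, a stalk protein, had 10230 and 14610 CPM after 254 nm, against 1796 and 700 CPM in untreated cells and had the highest mean share of tags after 254 nm. RPS19 had 8504 and 16310 CPM after 254 nm, against 1356 and 877 CPM in untreated cells, RPL27 had 6260 and 9426 CPM after 254 nm, against 1125 and 876 CPM in untreated cells and RPL36 had 4804 and 7491 CPM after 254 nm, against 708 and 342 CPM in untreated cells. Together the cytosolic ribosomal proteins took 18.2% and 24.0% of tags after 254 nm, against 6.60% and 5.04% in untreated cells. Of 74 mitochondrial ribosomal protein genes 62 rose and 0 fell (median 1.97). MRPL54 had 378 and 461 CPM after 254 nm, against 53 and 27.9 CPM in untreated cells. Of 67 nuclear-encoded respiratory chain genes 59 rose and 0 fell (median 2.42). NDUFB7 of complex I had 533 and 812 CPM after 254 nm, against 85.8 and 35.4 CPM in untreated cells. NDUFS8, an iron-sulphur subunit of the same complex, had 458 and 779 CPM after 254 nm, against 84.2 and 38.6 CPM in untreated cells. For each of these named genes both 254 nm libraries lay above both untreated libraries.

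Other complexes built from small subunits moved the same way, against a background of 25.2% of genes higher and 28.0% lower. All 17 spliceosomal Sm and LSm proteins tested rose (median 1.88), among them SNRPD2, a core Sm protein with split tags, at 1969 and 3271 CPM after 254 nm, against 406 and 357 CPM in untreated cells. Of 31 proteasome subunits 24 rose and 0 fell (median 1.49), and PSMB6, a catalytic-ring subunit, had 653 and 1158 CPM after 254 nm, against 158 and 134 CPM in untreated cells. Of 15 actin, tubulin and thymosin genes 12 rose and 0 fell (median 1.27). TMSB10, which binds actin monomers, had 2080 and 3494 CPM after 254 nm, against 366 and 373 CPM in untreated cells, and PFN1, profilin, had 2164 and 2220 CPM after 254 nm, against 847 and 442 CPM in untreated cells. PFN1 lost its call without untreated library B (log2 fold change 1.36). With the length and GC correction described below, PFN1 was lower (-0.96, edgeR adjusted p = 0.0183). MIF, a short abundant cytokine mRNA, had 5906 and 7886 CPM after 254 nm, against 954 and 288 CPM in untreated cells.

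RNA polymerase II showed both directions within 1 complex. Of its 12 subunit genes 9 rose (background 25.2%) and 3 fell, a share near the background of 28.0%. The 9 had a median length of 971 nt and the 3 of 3748 nt. POLR2L, a small subunit shared by the nuclear polymerases, had 858 and 1524 CPM after 254 nm, against 141 and 67.6 CPM in untreated cells (3.51 ± 0.47 on the log2 scale, split tags), whereas POLR2A, the catalytic subunit with the C-terminal repeat domain, had 311 and 146 CPM after 254 nm, against 846 and 759 CPM in untreated cells (-1.81 ± 0.39). The groups did not overlap for either gene. The translation factors and other mRNAs with a 5′ terminal oligopyrimidine (TOP) tract also held both directions. Of 21 tested 9 rose (background 25.2%) and 2 fell (background 28.0%), with a median of 0.75, and -0.11 with library totals. EEF1D, an elongation factor subunit, rose by 2.31 ± 0.44 on the log2 scale, IPO7, an import receptor, had -2.44 ± 0.36, and EEF2, the translocating elongation factor, had 0.57 ± 0.52 with an adjusted p of 0.359 (edgeR).

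Lists of histone methyltransferases and demethylases, SR proteins, hnRNP proteins and mitotic genes had more members that fell than rose (background 28.0% lower, 25.2% higher). Of 33 histone methyltransferases and demethylases 19 fell and 1 rose (median -1.18). KMT2C, a very long histone methyltransferase mRNA with split tags, had 4.54 and 6.84 CPM after 254 nm, against 22.9 and 50.0 CPM in untreated cells, and ASH1L had 6.36 and 8.30 CPM after 254 nm, against 28.3 and 65.2 CPM in untreated cells. Of 17 SR splicing factors 8 fell and 0 rose (median -0.81). SRRM1 and SRRM2, the SR-repetitive matrix proteins, had 16.8 and 15.6 CPM after 254 nm, against 99.8 and 135 CPM in untreated cells and 258 and 222 CPM after 254 nm, against 981 and 1030 CPM in untreated cells, while SRSF2 had 379 and 283 CPM after 254 nm, against 594 and 570 CPM in untreated cells and missed the threshold (edgeR adjusted p = 0.0552). Of 24 hnRNP genes 11 fell and 1 rose (median -0.78). HNRNPU, a nuclear scaffold protein, had 486 and 416 CPM after 254 nm, against 842 and 1241 CPM in untreated cells, and its call was lost without 254 nm library B or untreated library B (adjusted p 0.0918 and 0.0907, edgeR). With the length and GC correction, HNRNPU was higher (0.85, edgeR adjusted p = 0.0209). That correction left fold changes that rose with length (rho 0.19), and the HNRNPU mRNA is long (6846 nt). Among 32 genes of G2 and mitosis, 18 were lower and 3 higher (median -0.88). TOP2A, the topoisomerase that separates sister chromatids, had 82.2 and 56.2 CPM after 254 nm, against 251 and 422 CPM in untreated cells (-2.28 ± 0.36). MKI67, the Ki-67 antigen, fell by 1.05 on the log2 scale, with adjusted p 0.175 without 254 nm library A and 0.246 without untreated library B (edgeR). It was higher with length taken out (0.76, edgeR adjusted p = 0.0494) and with the length and GC correction (0.89, edgeR adjusted p = 0.00873). The shorter PLK1 mRNA, for a mitotic kinase, went the other way at 261 and 252 CPM after 254 nm, against 150 and 126 CPM in untreated cells, but it lost its call without either 254 nm library or untreated library B (edgeR adjusted p 0.0734 to 0.115). The range of CCNB1, cyclin B1, lay above that of untreated cells at 215 and 307 CPM after 254 nm, against 147 and 199 CPM in untreated cells, with an adjusted p of 0.138 (edgeR).

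Lists of the microRNA pathway, AU-rich element binding factors, HuR targets and ZNF genes also had more members that fell than rose. Of 15 genes of the microRNA pathway 8 fell and 1 rose (median -1.07). Those that fell were AGO1, AGO3, AGO4, DICER1, LIN28B, TNRC6A, TNRC6B and TNRC6C, with a median length of 7958 nt. TARBP2, the partner of Dicer with a 1888 nt mRNA, had 104 and 140 CPM after 254 nm, against 51.6 and 26.1 CPM in untreated cells and rose. Of 20 AU-rich element binding factors 11 fell and 1 rose (median -0.97), with CELF1, which binds GU-rich elements, at 3.18 and 2.93 CPM after 254 nm, against 16.5 and 28.5 CPM in untreated cells. Of 35 mRNAs known as targets of HuR, an RNA-binding protein, 17 fell and 2 rose (median -0.86). SIRT1, a deacetylase in that list, had 13.6 and 9.28 CPM after 254 nm, against 52.8 and 105 CPM in untreated cells. Of 356 ZNF zinc finger genes tested 141 fell and 41 rose (median -0.88), with ZNF711 at 123 and 52.7 CPM after 254 nm, against 306 and 589 CPM in untreated cells and ZNF428 at 287 and 363 CPM after 254 nm, against 110 and 53 CPM in untreated cells. Of 210 solute carriers 66 fell, a share near the background of 28.0%, and 36 rose (background 25.2%, median -0.58). In 24 of 24 lists that had called genes in both directions, those that rose had the shorter median length. Some of these medians rest on 1 gene, as for the genes that rose in the hnRNP and microRNA lists. The lists are part of the length trend over all genes (rho -0.65), so this count is no separate result.

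Genes of the p53 response did not move together. Of 27 tested 7 rose (background 25.2%) and 10 fell (background 28.0%), with a median log2 fold change of -0.24. CDKN1A, the p21 cell cycle inhibitor, had 91.8 and 81.1 CPM after 254 nm, against 73.1 and 58.8 CPM in untreated cells and was not called (edgeR adjusted p = 0.306). MDM2, which degrades p53, had 25.4 and 16.6 CPM after 254 nm, against 82.3 and 183 CPM in untreated cells and fell (split tags). PMAIP1, the pro-apoptotic NOXA, had 98.1 and 52.2 CPM after 254 nm, against 202 and 261 CPM in untreated cells and fell, and CCNG1, cyclin G1, had 103 and 78.1 CPM after 254 nm, against 160 and 246 CPM in untreated cells. That CCNG1 call was lost without 254 nm library B (adjusted p = 0.0913) or untreated library B (0.0695, edgeR). BAX, the pore-forming apoptosis protein, had 72.7 and 96.7 CPM after 254 nm, against 32.3 and 23.9 CPM in untreated cells and rose. With the length and GC correction BAX was lower instead (log2 fold change -1.17, edgeR adjusted p = 0.000608). That correction left fold changes that rose with length (rho 0.19), and the BAX mRNA is short (891 nt). PHLDA3 and DDB2 also rose as measured: PHLDA3, an inhibitor of AKT, had 40.9 and 43.5 CPM after 254 nm, against 13.5 and 3.73 CPM in untreated cells, and DDB2 had 49.1 and 92.3 CPM after 254 nm, against 22.3 and 24.5 CPM in untreated cells. GADD45A had 53.2 and 49.8 CPM after 254 nm, against 30.9 and 31.1 CPM in untreated cells and was not called (edgeR adjusted p = 0.0657). It was lower with the length and GC correction (-0.71, edgeR adjusted p = 0.0401). The 7 that rose had a median length of 1675 nt and the 10 that fell of 3658.5 nt.

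In the repair and early-response lists, as in the other lists with calls both ways, the genes that rose had the shorter median length. For the early-response list these medians were 2119.5 nt for only 2 genes that rose and 3475.5 nt for 8 that fell. Of 35 UV damage repair genes 8 rose and 11 fell (median -0.45), shares near the background of 25.2% higher and 28.0% lower. Their median lengths were 1986 nt for those that rose and 4925 nt for those that fell. XRCC1, a scaffold of base excision and nick repair, had 214 and 206 CPM after 254 nm, against 84.1 and 66.5 CPM in untreated cells. ERCC1 and ERCC4, whose proteins form 1 nuclease, went apart: ERCC1 had 129 and 162 CPM after 254 nm, against 70.7 and 34.3 CPM in untreated cells and rose, ERCC4 had 3.63 and 4.88 CPM after 254 nm, against 16.7 and 21.8 CPM in untreated cells and fell (split tags in both). REV3L, the catalytic subunit of a translesion polymerase, had 5.45 and 4.88 CPM after 254 nm, against 17.9 and 43.4 CPM in untreated cells and fell. XPC, a damage sensor, had 41.8 and 37.6 CPM after 254 nm, against 37.2 and 36.2 CPM in untreated cells, with an adjusted p of 0.795 (edgeR). Of 29 immediate-early genes tested 8 fell (near the background of 28.0%) and 2 rose (background 25.2%, median -0.40). JUN had 718 and 320 CPM after 254 nm, against 788 and 370 CPM in untreated cells, FOS 1.82 and 8.30 CPM after 254 nm, against 5.78 and 5.06 CPM in untreated cells and EGR1 3.63 and 5.37 CPM after 254 nm, against 7.37 and 7.72 CPM in untreated cells, and the adjusted p of these 3 was 0.762, 0.867 and 0.268 (edgeR). In JUN and FOS the groups overlapped. MCL1, an anti-apoptotic protein with a short-lived mRNA, had 72.7 and 63.5 CPM after 254 nm, against 154 and 204 CPM in untreated cells and fell, as did ZFP36L1, which promotes decay of AU-rich mRNAs, at 10.0 and 5.37 CPM after 254 nm, against 34.5 and 28.8 CPM in untreated cells. IER3 had 31.8 and 31.2 CPM after 254 nm, against 7.77 and 7.99 CPM in untreated cells and rose. MYC had 180 and 152 CPM after 254 nm, against 218 and 326 CPM in untreated cells, with an adjusted p of 0.0649 (edgeR).

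Other stress programmes were mixed, against a background of 25.2% higher and 28.0% lower. In the integrated stress response list 8 of 29 rose, a share near that background, and 5 fell (median 0.24, and -0.58 with library totals). ATF4, its central transcription factor, had 438 and 604 CPM after 254 nm, against 207 and 260 CPM in untreated cells, and its call was lost without 254 nm library B (edgeR adjusted p = 0.108) or untreated library A (0.0578). PHGDH, of serine synthesis, had 668 and 599 CPM after 254 nm, against 305 and 169 CPM in untreated cells, with an adjusted p of 0.0867 without untreated library B (edgeR), and SLC7A11, the cystine transporter, had 3.63 and 2.93 CPM after 254 nm, against 13.7 and 18.6 CPM in untreated cells and fell (split tags). Of 19 heat shock and cytosolic chaperones 4 rose and 4 fell. HSPA1B, the inducible HSP70, had 824 and 277 CPM after 254 nm, against 1287 and 886 CPM in untreated cells; its adjusted p of 0.0475 became 0.56 without 254 nm library B and 0.206 without untreated library A (edgeR). HSPB1, the small heat shock protein, had 111 and 109 CPM after 254 nm, against 25.5 and 6.92 CPM in untreated cells. Endoplasmic reticulum chaperones counted 6 up and 6 down of 19, with SDF2L1 at 182 and 266 CPM after 254 nm, against 43.8 and 24.2 CPM in untreated cells and CANX, calnexin, at 217 and 180 CPM after 254 nm, against 606 and 876 CPM in untreated cells, while HSPA5, the BiP chaperone, had 513 and 440 CPM after 254 nm, against 407 and 460 CPM in untreated cells. Of 7 NF-kappaB targets tested 3 rose and 2 fell, with NFKBIE, an inhibitor of the pathway, at 38.6 and 37.6 CPM after 254 nm, against 15.1 and 11.7 CPM in untreated cells. Interferon-stimulated genes counted 9 up and 6 down of 21, NRF2 targets 7 and 7 of 18 (TXNRD1, thioredoxin reductase, at 40.0 and 19 CPM after 254 nm, against 101 and 148 CPM in untreated cells), cholesterol synthesis 7 and 9 of 24 (HMGCS1 at 90.4 and 53.2 CPM after 254 nm, against 242 and 324 CPM in untreated cells), and G1/S genes 8 and 7 of 31 (TK1, thymidine kinase, at 478 and 504 CPM after 254 nm, against 177 and 66.8 CPM in untreated cells). Glycolytic enzymes counted 4 and 1 of 14, and polyadenylated histone mRNAs 7 and 1 of 13, with linker histone H1-2 at 252 and 308 CPM after 254 nm, against 53.6 and 21.3 CPM in untreated cells. HEK293 markers counted 1 up (KRT18, 2.28 ± 0.35 on the log2 scale) and 4 down of 9. KRT10 alone rose among the 3 tested markers of other cell types. The 25 long noncoding RNAs listed matched 0 named transcripts and were not analysed here. With library totals the medians of the glycolytic, NF-kappaB, interferon, NRF2, heat shock and endoplasmic reticulum lists were -0.04, -0.12, -0.13, -0.42, -0.77 and -0.71, against 0.82, 0.74, 0.73, 0.44, 0.08 and 0.14 with TMM.

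Taking the length trend out of each library left fewer calls. With a smooth curve of level on length taken out of each library, 2767 genes were higher (20.2%) and 2150 lower (15.7%) by edgeR. Curves on length and GC content together left 1222 higher (11.0%) and 1154 lower (10.3%) of the 11155 genes with a sequence. After the length correction, rho between fold change and length was -0.04. After both it was 0.19, so a length trend of opposite sign remained and residual changes are not free of length. Of the ribosomal proteins 29 of 43 and 24 of 32 still rose with the length correction (medians 1.37 and 1.33), but 11 of 42 and 6 of 32 with both (medians 0.15 and -0.09). Respiratory chain genes gave 47 of 67 and then 13 of 67 higher (medians 1.07 and -0.04). Histone methyltransferases and demethylases gave 5 of 33 higher and 3 lower with the length correction, and 1 higher and 3 lower with both (medians -0.05 and -0.04). For the p53 list 7 rose and 8 fell with length taken out, and 1 rose and 6 fell with both (medians -0.19 and -0.47). Of the immediate-early genes 1 rose and 4 fell, then 1 and 9 (median -0.68). Known HuR targets kept a low median in both corrections (-0.43 and -0.56, with 11 and then 12 of 35 lower). Polyadenylated histone mRNAs stood at -0.38 and then -1.41, with 8 of 13 lower under both. Their median length of 732 nt lies at the short end of the remaining length trend.

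**Figure D4:**
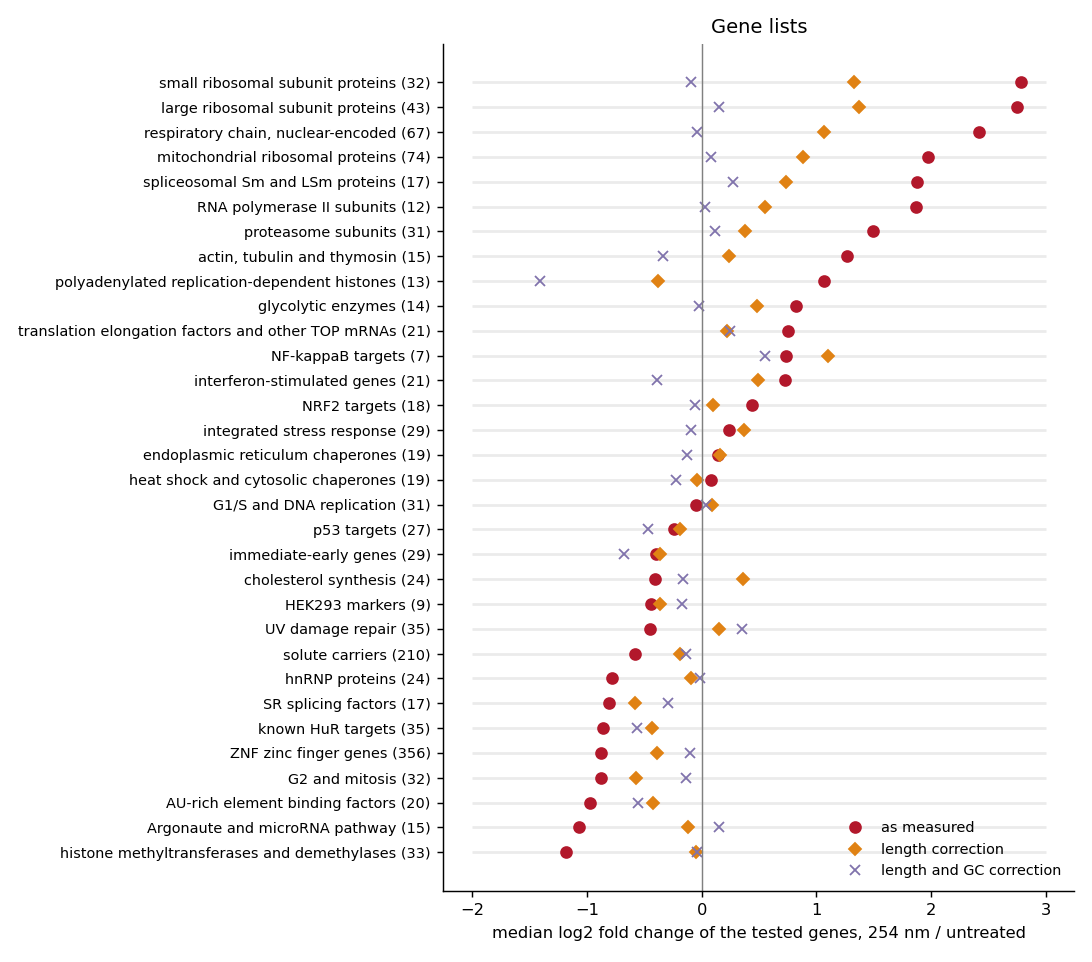
Median log2 fold change (254 nm over untreated) of gene lists with at least 7 tested genes (number in brackets), as measured, after length correction and after length and GC correction. Ribosomal protein lists run from 2.75 and 2.78 to 0.15 and -0.09, and histone mRNAs from 1.07 to -1.41.

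Some mRNAs kept large changes under both corrections. TRA2A, a splicing activator with an mRNA of 1852 nt, had 24.5 and 13.2 CPM after 254 nm, against 83.9 and 104 CPM in untreated cells, and its log2 fold change was -2.31 ± 0.36 as measured, -2.94 with length and -2.48 with both taken out. CD9, a tetraspanin of 1246 nt, had 22.3 and 9.77 CPM after 254 nm, against 49.6 and 53.8 CPM in untreated cells, with -1.68, -2.92 and -2.81 on these scales. GOLIM4, a Golgi protein, had 5.45 and 3.91 CPM after 254 nm, against 34.3 and 66 CPM in untreated cells (-3.40, -3.21 and -2.87), and CELF1 had -2.85, -3.15 and -2.94. On the higher side stood SMPD4, a sphingomyelinase of 4920 nt, at 295 and 318 CPM after 254 nm, against 76.1 and 49.2 CPM in untreated cells (2.29, 3.39 and 2.70), PNKD at 59.5 and 102 CPM after 254 nm, against 13.3 and 4.26 CPM in untreated cells (3.15, 3.54 and 2.92) and STAB1, a scavenger receptor of 7965 nt, at 58.6 and 99.6 CPM after 254 nm, against 25.1 and 16 CPM in untreated cells (1.93, 3.45 and 2.59). For each of these 7 genes the 254 nm and untreated libraries did not overlap, which was a condition of the rule for the largest changes and so is no separate support. RPL28, RPL27A and NACA also gained by the correction, to 4.20, 4.08 and 3.30, against 3.22, 2.94 and 1.82 as measured. Their deposited lengths of 4439, 4906 and 6650 nt stand beside a median of 748 nt for large-subunit proteins, and all 3 had split tags.

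The effect of 254 nm was then set against that of 365 nm on 4SU-fed cells, each over its own libraries without crosslinking. No library is shared between them, but wavelength and 4SU cannot be told apart. After 365 nm the log2 fold change also fell with length (rho -0.45, against -0.65 after 254 nm) and followed GC less (0.27, against 0.56). In the test of the difference 973 genes (7.09%) were higher and 1372 (9.99%) lower at 254 nm than at 365 nm (edgeR adjusted p under 0.05). This split depends on scaling: RLE factors gave 607 higher and 1673 lower, library totals 4459 and 494, and the median difference of all genes was 0.15 with TMM, -0.05 with RLE and 1.18 with library totals. It also depends on single libraries: 246 were higher without 365 nm library B and 1859 without untreated library A, and 858 were lower without 365 nm library B. Ribosomal proteins differed in 1 of 43 and 0 of 32 genes, although their median differences were -0.93 and -0.97, with median log2 fold changes of 2.75 and 2.78 at 254 nm and 3.71 and 3.73 at 365 nm.

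Genes of glycolysis, hnRNP proteins, TOP mRNAs, NRF2 targets and endoplasmic reticulum chaperones often had the lower effect at 254 nm. Of 14 glycolytic enzymes 8 had a lower effect at 254 nm (background 9.99%). GPI, glucose-6-phosphate isomerase, had 0.73 ± 0.45 at 254 nm and 3.40 ± 0.49 at 365 nm, a difference of -2.67 ± 0.64, and LDHB differed by -2.52 ± 0.68 and GAPDH by -1.79 ± 0.59. Of 24 hnRNP genes 11 were lower (HNRNPA2B1, -3.41 ± 0.66), of 21 TOP mRNAs 11, of 18 NRF2 targets 8, and of 19 endoplasmic reticulum chaperones 9, led by CANX (-4.65 ± 0.61). YBX1, a cold shock domain RNA-binding protein, differed by -3.01 ± 0.62. Among genes with a symbol, the strongest differences above median level were those of TXNDC16, ACTR2, PEG10 and ENPEP. ACTR2, of the ARP2/3 complex, had 26.4 and 14.2 CPM after 254 nm, against 118 and 172 CPM in untreated cells, and 520 and 573 CPM after 4SU with 365 nm, against 79 and 80.8 CPM with 4SU alone: its log2 fold change was -2.83 ± 0.39 at 254 nm and 2.77 ± 0.37 at 365 nm. DDB1, the damage-binding partner of DDB2, had 154 and 137 CPM after 254 nm, against 189 and 201 CPM in untreated cells, and 1379 and 1265 CPM after 4SU with 365 nm, against 96.7 and 122 CPM with 4SU alone, a difference of -4.01 ± 0.53 (split tags).

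In the other direction stood the integrated stress response and G1/S lists. Of 29 integrated stress response genes 10 had a higher effect at 254 nm and 2 a lower one (background 7.09% and 9.99%), with ATF4 differing by 1.70 ± 0.52 and ATF3 by 1.87 ± 0.53. Such differences also depend on the level with 4SU alone. ATF4 had 438 and 604 CPM after 254 nm, against 207 and 260 CPM in untreated cells. It had 386 and 347 CPM after 4SU with 365 nm, against 568 and 494 CPM with 4SU alone. Of 31 G1/S genes 8 were higher and 4 lower (PCNA, 1.58 ± 0.51), and of 356 ZNF genes 51 were higher and 0 lower. Of 32 genes of G2 and mitosis 2 were higher and 0 lower, and of 19 heat shock and cytosolic chaperones 1 was higher and 3 were lower. FADD, an adaptor of death receptors, had 36.4 and 48.3 CPM after 254 nm, against 16.3 and 14.9 CPM in untreated cells, and 7.86 and 2.80 CPM after 4SU with 365 nm, against 26.4 and 17.7 CPM with 4SU alone, a difference of 3.59 ± 0.64. PLK1 differed by 2.25 ± 0.48, RAB9A, a Rab GTPase, by 3.08 ± 0.64, MYC by 1.81 ± 0.51 and PHLDA3 by 1.74 ± 0.59. MYC had fallen at 365 nm by 2.52 on the log2 scale and was not called at 254 nm.

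**Figure D5:**
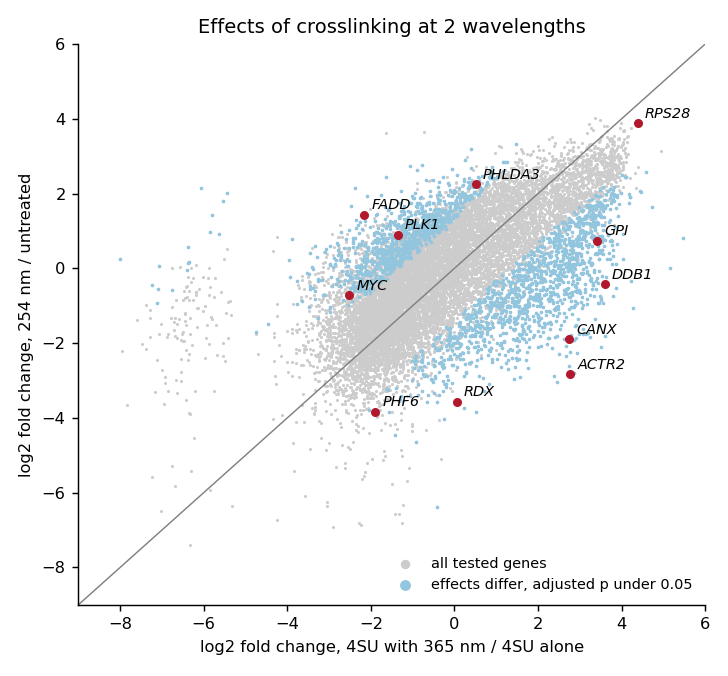
Log2 fold change at 254 nm over untreated (vertical) against that of 4SU with 365 nm over 4SU alone (horizontal) for all 13731 tested genes, with the line of equal effects, genes whose effects differ in blue and named genes in red. FADD, PLK1 and MYC lie above the line, ACTR2, CANX, DDB1, GPI and RDX below it, and RPS28 at the upper end on both axes.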

How the data were processed

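Polyadenylated RNA of HEK293 cells was sequenced in 4 libraries of the comparison and 4 further libraries with 4-thiouridine. The deposited values are expected counts of tags per transcript, which the authors did not normalize, per the file headers. Non-whole counts show tags split between transcripts. Not given in the sources used here: aligner, build, strand handling and annotation. The deposited length (a value in nt) was used as given. Counts were rounded, transcripts were named from RefSeq (15380 of 23881) or GENCODE v29 (124), 8377 stayed unnamed, and 10 genes with several transcripts were summed. Sequences and base composition came from GENCODE v29 transcripts (GRCh38) by accession.

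One edgeR 4.0.16 quasi-likelihood model under R 4.3.3, with TMM factors, filterByExpr and 1 mean for each group, was fitted over 8 libraries. It tested 13731 genes, with a common biological coefficient of variation of 0.244. Tests were two-sided with Benjamini-Hochberg adjustment, called at 0.05, and ± after a log2 fold change is its approximate standard error (the change divided by the square root of F). Levels are TMM-normalised CPM. Corrections took a lowess curve (span 0.3) on length, or on length and then on GC content, out of each library. The latter left a rho of 0.19 between fold change and length. The model was also run on simulated data, but these lacked the differences between untreated libraries A and B along GC content and length. No conclusion is drawn from that run here.

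Members, gene lists and the rule for named genes were chosen with earlier results of these data known. The rule took the 10 largest changes each way above median level (with and without length correction), up to 6 members per list, any p53, repair or early-response gene, and the 5 largest differences from 365 nm each way. Some genes it takes are not reported here. Alternatives were RLE and upper-quartile factors, library totals, DESeq2 1.42.0, other filters, an adjusted p threshold of 0.01, omission of each library in turn, transcripts not summed by gene, blocking on the replicate letter, and a fit of only these 4 libraries. Named genes with split tags, and so uncertain values, were CYBA, SBNO1, RDX, RPL36, RPL28, RPL27A, EEF2, NACA, EEF1D, POLR2L, PFN1, SNRPD2, KMT2C, MKI67, SRRM2, MDM2, ERCC1, ERCC4, DDB1, ATF4, SLC7A11, HSPA5 and MIF. This list does not cover the microRNA pathway genes other than TARBP2 or the cell type markers other than IRS4 and KRT18.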

Additional observations from a re-analysis of the deposited data

Results flagged for a closer look

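Among 103 of the genes named above, 29 had an effect of crosslinking that differed between 254 nm and 365 nm in the test of the difference itself (edgeR adjusted p under 0.05, over 13731 genes). The 103 leave out the microRNA pathway genes other than TARBP2 and the cell type markers other than IRS4 and KRT18. The difference is the log2 fold change of 254 nm over untreated minus that of 4SU with 365 nm over 4SU alone.

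The effect was lower at 254 nm for 19 genes, with adjusted p from 1.26e-09 to 0.032: TXNDC16 (-5.61), ACTR2 (-5.60), PEG10 (-5.50), ENPEP (-5.41), CANX (-4.65), DDB1 (-4.01), RDX (-3.62), CD9 (-3.49), HNRNPA2B1 (-3.41), YBX1 (-3.01), GPI (-2.67), GOLIM4 (-2.54), LDHB (-2.52), CCNG1 (-2.30), PHF6 (-1.94), GAPDH (-1.79), SBNO1 (-1.74), IPO7 (-1.67) and STAB1 (-1.49). It was higher at 254 nm for 10 genes, with adjusted p from 7.27e-05 to 0.0361: PCNA (1.58), TARBP2 (1.63), CCNB1 (1.69), ATF4 (1.70), PHLDA3 (1.74), MYC (1.81), ATF3 (1.87), PLK1 (2.25), RAB9A (3.08) and FADD (3.59). Wavelength and 4SU cannot be told apart in these differences.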

How the results depend on the processing

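The 3460 higher and 3849 lower genes stayed within 1.5 times under RLE and upper-quartile factors, both filters, DESeq2, the compared groups alone and transcripts as deposited. Library totals gave 1384 higher and 6462 lower, length correction 2150 lower, length and GC correction 1222 higher and 1154 lower. Leaving out 1 library gave 2665 to 3804 higher and 2499 to 4219 lower. For the difference from 365 nm (973 higher, 1372 lower), RLE gave 607 higher, DESeq2 404 higher, library totals 4459 higher and 494 lower, and an adjusted p under 0.01 gave 260 and 875. Leaving out 1 library gave 246 to 1859 higher and 858 to 1657 lower. The causes were not tested. The lone library of a group was then assumed to vary like the others.

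The letters A and B are not stated to pair the libraries, and deviations of A correlated at 0.13 between the 254 nm and untreated groups. With a replicate block 3686 genes were higher and 4085 lower, and 1353 and 1554 differed from 365 nm. The replicate block with length correction left 2408 lower, and 2107 lower in the difference.

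Spearman's rho with length was -0.63 to -0.59 without 1 of the 4 libraries. Without ribosomal protein genes the mean of the median lengths was 1696 nt after 254 nm, against 2969 nt in untreated cells. Transcripts under 2000 nt took 65.4% of tags after 254 nm, against 31.75% in untreated cells.

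The settings were followed for 103 named genes, without the microRNA pathway genes other than TARBP2 and the cell type markers other than IRS4 and KRT18. None of the 103 changed direction past the threshold under RLE, upper-quartile factors, library totals or leaving out a library. With length correction MKI67 turned to 0.76, HNRNPU to 0.28 and PCNA to -0.78 (0.75, 0.29 and -0.78 with the replicate block, and RAB9A -0.83), past the threshold for MKI67 (0.0494 and 0.0401), PCNA (0.0492 and 0.0368) and RAB9A (0.0256) but not HNRNPU (0.511 and 0.485). With length and GC correction, NICOL1 (-0.48), RPS15 (-0.14), RPL36 (-0.20), NDUFB7 (-0.41), MRPL54 (-0.05), TMSB10 (-0.57), PFN1 (-0.96), ZNF428 (-0.05), BAX (-1.17), GADD45A (-0.71), IER3 (-0.07), HSPB1 (-0.21), SDF2L1 (-0.55), GAPDH (-0.09) and MIF (-0.43) turned negative, past the threshold for BAX, PFN1 and GADD45A (edgeR adjusted p 0.000608, 0.0183 and 0.0401). MKI67 (0.89), HNRNPU (0.85), HNRNPA2B1 (0.97), SLC7A11 (0.26) and ENPEP (0.09) turned positive, past it for MKI67, HNRNPU and HNRNPA2B1 (edgeR adjusted p 0.00873, 0.0209 and 0.0133). The length and GC correction left a rho of 0.19 between fold change and length, which favours long mRNAs. Of these 103 genes 84 were called, and 76 kept the call without each of the 4 libraries in turn.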
